A study of Mus musculus with 21 samples.

Results

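Scml2 and 9 other genes that encode Polycomb proteins were followed through 21 RNA-seq libraries of mouse embryonic stem cells. The 10 genes were taken by symbol from the 22512 genes of the deposited table. They are Scml2, Scmh1, Ezh1, Ezh2, Eed, Suz12, Cbx2, Cbx7, Rybp and Kdm2b. They were chosen by the measured Scml2 level: the Scml2 mRNA level was about 5-fold higher in both Trim71-edited groups, at 4.81 times W and 5.28 times T6B_MUT by group means. The values of the 10 genes in the Trim71 comparisons are therefore a description with no test.

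All libraries came from 129S6/SvEvTac embryonic stem cells grown in LIF medium on gelatin. Every group carried a GFP reporter named GFP_5xT71BS and a stably transfected FLAG-Cas9 with a linked blasticidin resistance, and this includes the control cells named W. Experiment 1 compared W with Trim71KO (Trim71-/-) and Ago2KO (Ago2-/-). Experiment 2 held 4 transfected groups. T6B_WT and T6B_MUT were reporter cells that received pCIP FH-T6B_WT::mCherry or pCIP FH-T6B_MUT::mCherry, while Trim71KO_empty and Ago2KO_empty were the edited cells with an empty plasmid. T6B is a peptide of a GW182/TNRC6 protein that binds Argonaute and blocks its silencing partners, and the mutant form served as its control. Each of the 7 groups had 3 biological replicates. The labels do not say how many clones an edited group stands for, nor the age of a transfection, and unedited cells with an empty plasmid were not analysed here. In Experiment 2 the edited genotype and the plasmid therefore differed together from T6B_MUT.

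Polycomb proteins keep developmental genes silent through 2 complexes. PRC2 methylates histone H3 at K27 through Ezh1 or Ezh2, which need Eed and Suz12, and PRC1 ubiquitinates histone H2A. Canonical PRC1 reads the PRC2 mark through a Cbx protein such as Cbx7 or Cbx2. Variant PRC1 instead holds Rybp or its relative, and a form of it is brought to CpG islands by Kdm2b. Scml2 and Scmh1 are relatives of the fly protein Sex comb on midleg, with MBT repeats and a SAM domain. Scml2 is best known from male germ cells, where it acts on the sex chromosomes and in silencing somatic genes. Trim71 is an RNA-binding repressor of mRNAs, and Ago2 carries microRNAs to their targets, which in embryonic stem cells are largely those of the miR-290 and miR-302 clusters.

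The 5 mature microRNAs shown here were included because both Argonaute-directed manipulations act on the pathway that they use. They come from RefSeq on GRCm38, and the capitals mark the seed, bases 2 to 8, which they share as AAGUGCU. The abundance of microRNAs was not measured in these libraries.
miR-291a-3p: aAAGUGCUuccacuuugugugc
miR-294-3p: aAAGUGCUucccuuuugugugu
miR-295-3p: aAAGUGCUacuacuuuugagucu
miR-302b-3p: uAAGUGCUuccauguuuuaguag
miR-302d-3p: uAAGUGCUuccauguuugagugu

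A 7-base match to that seed, AGCACTT on the mRNA strand, was looked for in the longest annotated 3′ UTR of each gene in GENCODE M21 (GRCm38). It was found in Scml2 and Ezh1 and in none of the other 8. The Scml2 match starts at base 456 of a 1640-base 3′ UTR and the Ezh1 match at base 922 of 1824. The 30 bases around each are given because these genes recur in the Argonaute comparisons, with the match in capitals. These 30 bases lie at chrX:161257018-161257047 (+ strand) for Scml2 and at chr11:101191999-101192028 (- strand) for Ezh1.
Scml2 3′ UTR: aggaaaataccAGCACTTctaaaaacagga
Ezh1 3′ UTR: atagagaacaaAGCACTTtaactctctttt

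Such a match was present in 2482 of 14762 tested genes with an annotated 3′ UTR (16.8%), whose median length was 1128 bases. It was also present in 12 of the 48 other Polycomb genes looked at, which are listed by complex further on. A match is a description of the sequence and does not show that a microRNA binds there.

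Total counts ranged from 29561125 to 50826201 reads per library in Experiment 1 and from 33910145 to 57872324 in Experiment 2. The sum of 8 embryonic stem cell markers, including Pou5f1 and Nanog, lay between 3910 and 5268 CPM (read counts relative to a TMM-scaled library size) in every library. Trim71 mRNA was 602, 602 and 618 CPM in W, and 412, 416 and 459 in Trim71KO. It was 482, 493 and 503 CPM in T6B_MUT, and 405, 409 and 393 in Trim71KO_empty. The mRNA was thus lower but present in the Trim71-edited groups, so these counts do not check the loss of the protein. Lower Trim71 mRNA was not particular to these groups. Ago2KO had 522, 504 and 505 CPM (log2 -0.25, adjusted p = 0.00161, edgeR). T6B_WT had 417, 421 and 445 CPM, wholly below T6B_MUT but not past the test (log2 -0.20, adjusted p = 0.102, edgeR). The libraries labelled Ago2KO_empty had 486, 564 and 419 CPM, which overlapped T6B_MUT. Ago2 mRNA was 153, 134 and 140 CPM in W and 43.6, 42.5 and 39.8 in Ago2KO. In the libraries labelled Ago2KO_empty it was 87.4, 167 and 45.6 CPM, against 113, 143 and 112 in T6B_MUT, so replicate 2 went against its label. Replicate 1 also stood above the Ago2KO level, and the group as a whole did not pass the test for Ago2 (log2 -0.30, adjusted p = 0.601, edgeR). Called members of this group are given with and without replicate 2. Sums of primitive endoderm and 2-cell-like markers also differed between groups, and these sums are given beside the Polycomb target genes. In bulk RNA, fewer cells of a type and less RNA per cell cannot be told apart.

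Scml2 (ENSMUSG00000000037, chromosome X, 161117193 to 161258213, + strand, GRCm38) was scarce in control cells and several times higher in Trim71-edited cells. Its level in W was 4.92, 4.11 and 4.03 CPM, and in Trim71KO it was 21.4, 22.3 and 19.1 CPM. T6B_MUT had 4.08, 3.98 and 3.85 CPM, and Trim71KO_empty had 21.9, 22.0 and 18.9 CPM. In both experiments every edited library stood far above every control library, and the 2 edited groups reached nearly the same level. The difference was 2.26 on the log2 scale (SE 0.10) in Experiment 1 and 2.40 (SE 0.11) in Experiment 2. Counts behind these levels ran from 193 to 238 reads in W and from 803 to 920 in Trim71KO.

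**Figure D1:**
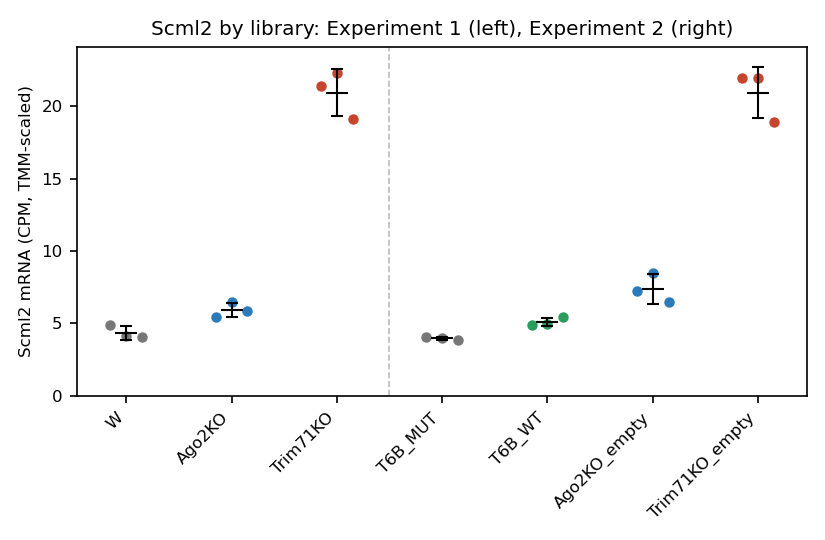
Scml2 mRNA in each of the 21 libraries (points, CPM scaled by TMM factors, axis from 0) by group, with the mean and SD of 3 replicates in black. The Trim71KO and Trim71KO_empty libraries lie between 18.9 and 22.3 CPM and all others between 3.85 and 8.46.

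Scml2 was also higher, by much less, in Ago2KO, in T6B_WT and in the libraries labelled Ago2KO_empty. Ago2KO had 5.46, 6.47 and 5.86 CPM, T6B_WT had 4.89, 4.94 and 5.41, and the libraries labelled Ago2KO_empty had 7.21, 8.46 and 6.47. Each of these groups lay wholly above its control, W or T6B_MUT, and wholly below the Trim71-edited group of its experiment. The order within Experiment 1 was therefore W, Ago2KO, Trim71KO, and within Experiment 2 it was T6B_MUT, T6B_WT, Ago2KO_empty, Trim71KO_empty, with no overlap between neighbours. These 3 comparisons were not used to choose the genes, but they share the W or T6B_MUT libraries with the Trim71 comparisons. The T6B_WT and Ago2KO_empty comparisons also share T6B_MUT with each other, so they are not independent. In the edgeR quasi-likelihood test with Benjamini-Hochberg adjustment over all genes, Scml2 rose in Ago2KO by 0.44 (log2, SE 0.11, adjusted p = 0.0103). It rose in T6B_WT by 0.36 (SE 0.11, adjusted p = 0.0383, edgeR) and in the libraries labelled Ago2KO_empty by 0.89 (SE 0.11, adjusted p = 1.26e-05, edgeR). Without replicate 2 of the last group the difference was 0.77 (adjusted p = 4.94e-05, edgeR). Within that group Scml2 was highest in replicate 2 and lowest in replicate 3. Ago2 mRNA was also highest in replicate 2 (167 CPM) and lowest in replicate 3 (45.6 CPM).

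The calls of the 2 smaller Scml2 differences did not hold with fewer libraries, while the sizes moved little. The T6B_WT call was lost when any 1 of its 6 libraries was left out (adjusted p 0.0665 to 0.139, edgeR), with log2 differences from 0.30 to 0.37. The Ago2KO call was lost without W replicate 2 (0.40, adjusted p = 0.0528, edgeR) or W replicate 3 (0.38, adjusted p = 0.0546, edgeR). The Ago2 effect on Scml2 was larger in Experiment 2 by 0.44 (95% interval 0.14 to 0.74), and the edgeR test of that difference over all 21 libraries gave an adjusted p of 0.144. Without Ago2KO_empty replicate 2 that difference was 0.35 (adjusted p = 0.309, edgeR).

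Scmh1, the other Sex comb on midleg relative, was the scarcer of the pair per kilobase. In control cells W the deposited RPKM (reads scaled by gene length and library size) was 0.334 for Scmh1 and 0.689 for Scml2. Its level was 3.14, 2.38 and 2.12 CPM in W, 4.09, 4.002 and 3.06 in Trim71KO, and 3.19, 3.47 and 2.91 in Ago2KO. In Experiment 2 it was 2.73, 3.50 and 2.49 CPM in T6B_MUT, 3.59, 3.25 and 3.09 in T6B_WT, and 4.14, 3.30 and 3.49 in Trim71KO_empty. The groups overlapped in every comparison. Scmh1 was higher by 0.54 (log2, SE 0.16) in Trim71KO and by 0.34 (SE 0.22) in Trim71KO_empty. It did not pass the edgeR test in Ago2KO (95% interval 0.00 to 0.63) or T6B_WT (-0.24 to 0.63). The libraries labelled Ago2KO_empty had 4.02, 6.21 and 2.88 CPM, and the difference of 0.59 (adjusted p = 0.0528, edgeR) was 0.24 (adjusted p = 0.335, edgeR) without replicate 2 and 0.79 (adjusted p = 0.0015, edgeR) without replicate 3. With all 3 replicates Scmh1 passed in this group with DESeq2 (adjusted p = 0.0317) and with all 21 libraries in 1 edgeR fit (adjusted p = 0.0313).

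The PRC2 genes did not share a pattern. Ezh1, the methyltransferase that is the more abundant of the pair in resting and differentiated cells, had 26.4, 26.2 and 25.8 CPM in W and 34.4, 35.5 and 34.0 in Ago2KO. T6B_MUT had 23.4, 26.5 and 24.2 CPM, T6B_WT had 31.7, 31.8 and 30.4, and the libraries labelled Ago2KO_empty had 29.7, 30.1 and 29.8. All 9 of these Argonaute-manipulated libraries lay above every control library of their experiment. T6B_WT and Ago2KO_empty were set against the same T6B_MUT libraries, and Ago2KO_empty replicate 2 had a control-like Ago2 level. Ezh1 rose by 0.40 (log2, SE 0.05) in Ago2KO, with an adjusted p of 0.000105 in the edgeR test. It rose by 0.34 (SE 0.07, adjusted p = 0.00148, edgeR) in T6B_WT. In the libraries labelled Ago2KO_empty it rose by 0.28 (SE 0.07, adjusted p = 0.00515, edgeR), and by 0.25 (adjusted p = 0.0169, edgeR) without replicate 2. That call was lost without T6B_MUT replicate 1, the lowest control library (0.22, adjusted p = 0.0649, edgeR). In the Trim71-edited cells Ezh1 was 25.4, 24.7 and 24.3 CPM in Trim71KO, just below W. In Trim71KO_empty it was 29.4, 29.8 and 28.7 CPM, above T6B_MUT by 0.25 (log2, SE 0.07). That is close to the level in the libraries labelled Ago2KO_empty.

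Ezh2, the main methyltransferase of dividing cells, was the more abundant of the pair in every group. Per kilobase the ratio of Ezh2 to Ezh1 was 4.51 in W, 4.76 in Trim71KO and 3.50 in Ago2KO. In Experiment 2 the ratio was 4.19 in T6B_MUT, 3.53 in T6B_WT, 3.96 in the libraries labelled Ago2KO_empty (3.54 without replicate 2) and 2.95 in Trim71KO_empty. Ezh2 itself had 110, 105 and 102 CPM in W and did not pass the edgeR test in Ago2KO (log2 95% interval -0.06 to 0.14) or T6B_WT (-0.14 to 0.33). In the libraries labelled Ago2KO_empty it had 98.6, 130 and 90.5 CPM. Replicate 2 was the highest there, and the log2 difference of 0.20 (adjusted p = 0.241, edgeR) was 0.01 (adjusted p = 0.956, edgeR) without it. Trim71KO, with 106 CPM in each replicate, lay within the W range, and Trim71KO_empty, with 67.9, 86.5 and 78.5 CPM, lay below the 93.0, 89.2 and 96.3 of T6B_MUT.

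Suz12, the PRC2 subunit that holds the complex together, was higher in both Trim71-edited groups. It had 276, 251 and 236 CPM in W and 382, 399 and 348 in Trim71KO. T6B_MUT had 346, 331 and 371 CPM, and Trim71KO_empty had 436, 491 and 433. Neither pair of groups overlapped, and the log2 differences were 0.57 (SE 0.07) and 0.38 (SE 0.08). Suz12 did not pass the edgeR test in Ago2KO (95% interval -0.21 to 0.07), T6B_WT (-0.24 to 0.09) or the libraries labelled Ago2KO_empty (-0.02 to 0.32). The last of these was 0.06 (adjusted p = 0.634, edgeR) without replicate 2.

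Eed, which binds the methyl mark and stimulates the enzyme, was lower in Trim71KO and in T6B_WT. It had 333, 325 and 329 CPM in W and 290, 279 and 275 in Trim71KO, with no overlap and a log2 difference of -0.23 (SE 0.05). Its level in Trim71KO_empty (240, 269 and 245 CPM) overlapped that in T6B_MUT (267, 256 and 283 CPM). T6B_WT had 221, 231 and 239 CPM, wholly below T6B_MUT, and Eed fell there by 0.22 (SE 0.07, adjusted p = 0.0435, edgeR). That call was lost when any 1 of the 6 libraries was left out (adjusted p 0.054 to 0.171, edgeR), with log2 differences from -0.27 to -0.19. Eed was -0.08 (95% interval -0.17 to 0.01) in Ago2KO and -0.06 (-0.20 to 0.08) in the libraries labelled Ago2KO_empty, neither past the test. The latter was -0.01 without replicate 2.

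Cbx7, the main Cbx subunit of canonical PRC1 in undifferentiated embryonic stem cells, was lower in each Argonaute-manipulated group. Its level was 148, 163 and 157 CPM in W and 139, 126 and 119 in Ago2KO. T6B_MUT had 141, 151 and 129 CPM, T6B_WT had 120, 106 and 104, and the libraries labelled Ago2KO_empty had 124, 121 and 114. None of these groups overlapped its control. Cbx7 fell by 0.29 (log2, SE 0.06, adjusted p = 0.00397, edgeR) in Ago2KO and by 0.35 (SE 0.07, adjusted p = 0.0022, edgeR) in T6B_WT. It fell by 0.22 (SE 0.07, adjusted p = 0.0247, edgeR) in the libraries labelled Ago2KO_empty, and by 0.25 (adjusted p = 0.0216, edgeR) without replicate 2. That call was lost without T6B_MUT replicate 1 (adjusted p = 0.0589, edgeR) or replicate 2 (adjusted p = 0.0961, edgeR). In the Trim71-edited groups Cbx7 overlapped its controls, at 154, 167 and 161 CPM in Trim71KO and 155, 143 and 151 in Trim71KO_empty.

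Cbx2, a Cbx subunit that rises when stem cells differentiate, was lower in the Trim71-edited groups. It had 31.5, 38.4 and 37.6 CPM in W and 29.3, 28.4 and 33.7 in Trim71KO, which overlapped. T6B_MUT had 33.0, 34.0 and 32.6 CPM and Trim71KO_empty had 25.0, 23.5 and 26.7, which did not. The log2 differences were -0.23 (SE 0.08) and -0.41 (SE 0.07). In the libraries labelled Ago2KO_empty, with 28.2, 29.8 and 29.4 CPM, Cbx2 fell by 0.19 (SE 0.07, adjusted p = 0.0458, edgeR), and by 0.22 (adjusted p = 0.0371, edgeR) without replicate 2. The call was lost without replicate 1 of that group (adjusted p = 0.116, edgeR) or without any 1 of the T6B_MUT replicates (adjusted p 0.0535 to 0.0997, edgeR), and with those 2 groups fitted alone (adjusted p = 0.0549, edgeR). Cbx2 did not pass the test in Ago2KO (95% interval -0.06 to 0.27) or T6B_WT (-0.12 to 0.15).

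Kdm2b, the CpG-binding protein that recruits a form of variant PRC1, was lower in the Trim71-edited groups. It was higher in the Argonaute-manipulated groups of Experiment 2. It had 134, 141 and 145 CPM in W and 84.7, 87.3 and 92.5 in Trim71KO. T6B_MUT had 97.8, 97.7 and 94.4 CPM, and Trim71KO_empty had 63.3, 65.4 and 68.4. All Trim71-edited libraries lay below all of their controls, with log2 differences of -0.67 (SE 0.05) and -0.56 (SE 0.06). T6B_WT had 115, 118 and 118 CPM and the libraries labelled Ago2KO_empty had 111, 120 and 117, all above T6B_MUT. Kdm2b rose by 0.27 (SE 0.06, adjusted p = 0.00301, edgeR) in T6B_WT and by 0.26 (SE 0.06, adjusted p = 0.00264, edgeR) in the libraries labelled Ago2KO_empty, where it was 0.22 (adjusted p = 0.0142, edgeR) without replicate 2. In Ago2KO, with 162, 155 and 148 CPM, it stood just above W by 0.15 (95% interval 0.04 to 0.25) and missed the threshold (adjusted p = 0.0735, edgeR).

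Rybp, the subunit that defines variant PRC1, varied little in Experiment 1, where all 9 libraries lay between 59.6 and 67.6 CPM. It did not pass the test in Ago2KO (log2 95% interval -0.08 to 0.13) or T6B_WT (-0.10 to 0.25). T6B_MUT had 61.8, 59.2 and 66.1 CPM, Trim71KO_empty had 56.1, 64.8 and 56.7, and the libraries labelled Ago2KO_empty had 73.8, 87.4 and 66.7. Rybp rose in the last group by 0.28 (SE 0.09, adjusted p = 0.0233, edgeR), but by 0.15 (adjusted p = 0.17, edgeR) without replicate 2, its highest library. The call was also lost without replicate 1 (adjusted p = 0.054, edgeR) or without T6B_MUT replicate 1 (adjusted p = 0.0839, edgeR) or 2 (adjusted p = 0.105, edgeR).

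**Figure D2:**
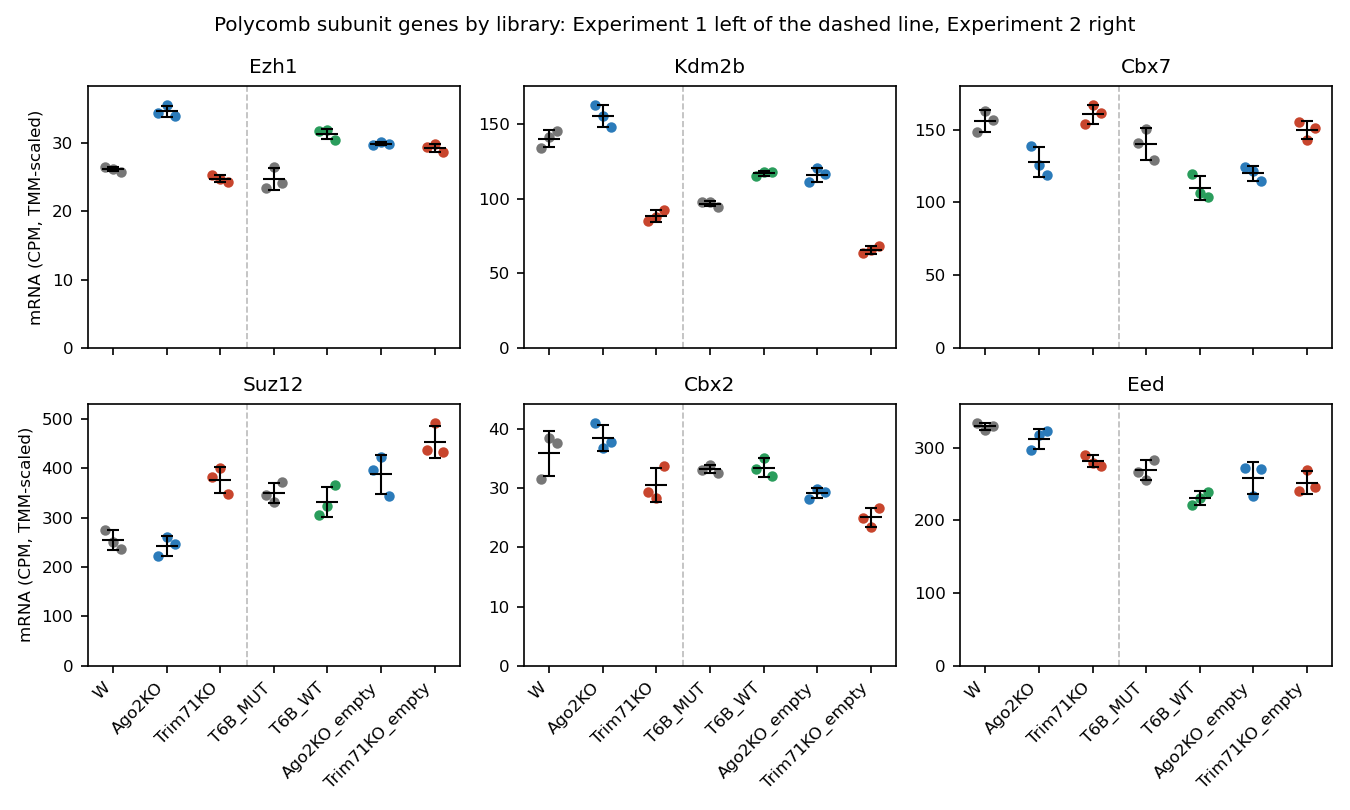
CPM (TMM-scaled, axis from 0) of Ezh1, Kdm2b, Cbx7, Suz12, Cbx2 and Eed in each library, with the mean and SD of 3 replicates in black. Kdm2b is lowest in the Trim71-edited groups of each experiment, and Cbx7 is lowest in the Argonaute-manipulated ones.

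All 10 genes passed the filter on low counts. In Trim71KO 3 were called higher and 3 lower, where 32.6% of all 21210 tested genes were called (16.9% higher, 15.6% lower). In Trim71KO_empty 3 were higher and 2 lower, where 27.8% of 21505 tested genes were called (14.4% higher, 13.4% lower). These 2 comparisons chose the genes, so nothing is read from their counts. In Ago2KO 2 of 10 rose and 1 fell, against 18.0% of all genes called (10.2% higher, 7.78% lower). In T6B_WT 3 rose and 2 fell, against 16.0% (9.29% higher, 6.69% lower). Without any 1 of these 6 libraries 3 members were called, against 9.35% to 11.4% of all genes. In the libraries labelled Ago2KO_empty 4 rose and 2 fell, against 28.8% (16.4% higher, 12.4% lower), and without replicate 2 there were 3 and 2, against 23.7%. Leaving out each library of this comparison gave 2 (without T6B_MUT replicate 1, against 17.8%) to 7 (without Ago2KO_empty replicate 3, against 36.9%). The median log2 difference of the 10 genes was 0.07 in Ago2KO, 0.08 in T6B_WT and 0.23 in Ago2KO_empty (0.11 without replicate 2), beside medians over all tested genes of -0.00, 0.01 and 0.03. No member passed the edgeR test of the difference between the Ago2 effects of the 2 experiments, where 2.13% of all genes were called (1.46% higher, 0.669% lower). DESeq2 also called 0 of the 10. At an unadjusted p under 0.05 in edgeR there were 3, namely Scml2 (0.00759), Cbx2 (0.0101) and Rybp (0.0302). The share of all genes under that looser threshold was not counted, so nothing is read from these 3. Without Ago2KO_empty replicate 2 their adjusted p values were 0.309, 0.182 and 0.571 (edgeR).

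**Figure D3:**
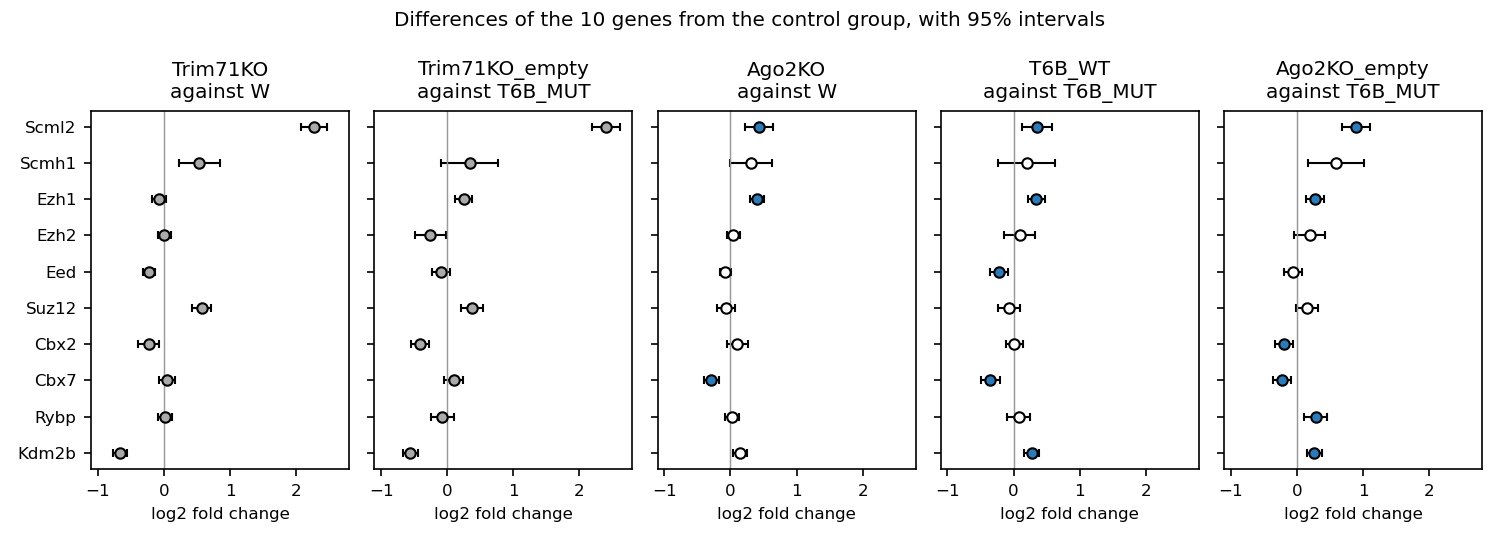
Log2 fold change of each of the 10 genes from the control group with 95% intervals, in 5 comparisons. Grey points are the 2 comparisons that chose the genes and carry no test, blue points passed the edgeR test and white points did not. Scml2 at 2.26 and 2.40 stands far to the right of the other 9 in the Trim71 comparisons, whose values lie between -0.67 and 0.57.

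Per kilobase the 10 genes spanned a wide range in W. The deposited RPKM was 87.1 for Eed, 52.0 for Suz12, 24.4 for Cbx7, 16.0 for Ezh2, 13.2 for Rybp, 13.1 for Kdm2b, 8.53 for Cbx2 and 3.56 for Ezh1, all above Scml2 and Scmh1. In Trim71KO the RPKM of Scml2 was 3.32, close to the 3.38 of Ezh1, so Scml2 remained a low-abundance mRNA beside the core subunits. In T6B_MUT the order differed at the top, where Suz12 (69.7) and Eed (69.3) were level.

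Genes that overlap another annotated gene carry a further uncertainty, because the use of strand in the authors' counting is not given in the sources used here. In GENCODE M21, Scml2, Scmh1, Ezh1 and Cbx2 overlap no other gene. Cbx7 overlaps Apobec3 on the opposite strand, Suz12 and Ezh2 overlap only opposite-strand genes, and Eed, Rybp and Kdm2b overlap genes on both strands.

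The surroundings of Scml2 were examined because its increase was far larger than that of any other of the 10 genes. Values are given for 7 genes of the table that lie at least partly within 1 Mb of it. Gm15262, annotated as protein-coding on the same strand, starts 29243 bases after the annotated end of Scml2 (161287456 to 161366252). Its level was 0.207, 0.255 and 0.125 CPM in W and 4.59, 4.06 and 4.45 in Trim71KO. It was 0.0393, 0.0480 and 0.243 CPM in T6B_MUT and 4.32, 4.64 and 3.82 in Trim71KO_empty. Gm15262 was thus near the limit of detection in both controls, with 2 to 14 reads per library, and rested on 137 to 214 reads per Trim71-edited library. The fitted log2 differences were 4.47 (SE 0.22) and 5.13 (SE 0.33), which depend on the few control reads. In Ago2KO, T6B_WT and the libraries labelled Ago2KO_empty the mean of Gm15262 was 0.173, 0.0563 and 0.189 CPM, and it was not called in any of these.

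The other neighbours of Scml2 showed smaller differences. Adgrg2 was higher by 1.12 and 1.42 in Trim71KO and Trim71KO_empty, and Ppef1 by 0.63 (SE 0.37, not called) and 1.35. Both genes were under 1 CPM in the controls. In the libraries labelled Ago2KO_empty both were called higher, by 1.12 and 0.82. Map3k15 (0.60 and 0.19), Phka2 (0.38 and 0.12), Pdha1 (0.03 and -0.25) and Nhs (0.40 and -0.47) were the remaining genes described. The median of the 7 neighbours was 0.60 in Trim71KO and 0.19 in Trim71KO_empty, beside 0.06 and -0.00 over all tested genes of chromosome X.

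**Figure D4:**
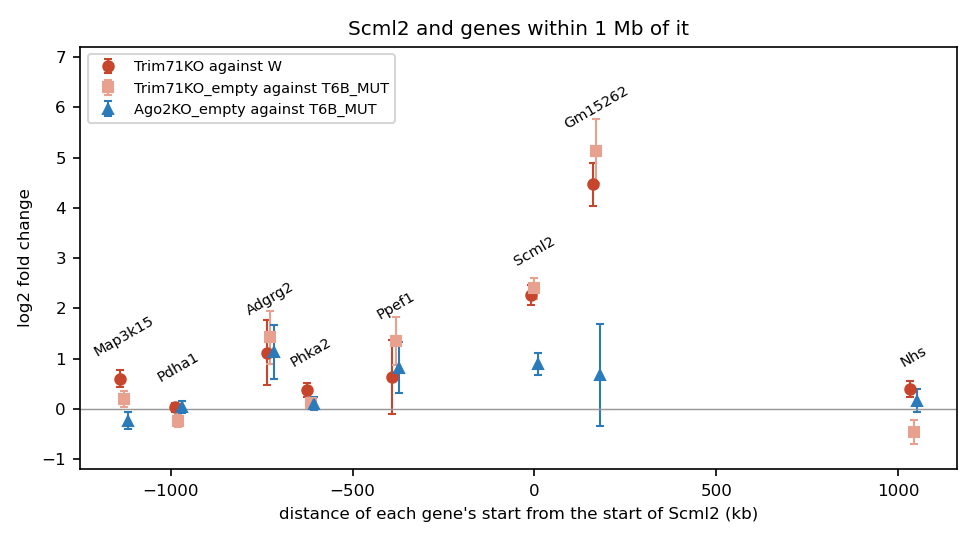
Log2 fold change of Scml2 and 7 genes within 1 Mb of it against the distance between gene starts in kb, in the Trim71KO, Trim71KO_empty and Ago2KO_empty comparisons. Points are shifted sideways by 10 kb to separate them and bars are 95% intervals. Gm15262 and Scml2 stand above all others in both Trim71 comparisons.

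The genes whose group means followed Scml2 most closely were found by Pearson correlation over the 7 group means of log2 CPM, centred within each experiment. Among 657 genes with enough expression and range, the highest were Acsl6 (r = 0.995), Calb2 (0.990), Rasa4 (0.986), Mest (0.986) and Trpa1 (0.985). Mest, an imprinted gene, had mean levels of 35.8 CPM in W, 75.3 in Trim71KO, 35.6 in T6B_MUT and 72.8 in Trim71KO_empty. The lowest were Btbd2 (-0.987), Ccne1 (-0.984) and Eno3 (-0.982). Ccne1, which encodes cyclin E1, had 195 CPM in W, 99.9 in Trim71KO, 126 in T6B_MUT and 46.1 in Trim71KO_empty. The 7 points share libraries, and the 2 Trim71-edited groups set most of the spread, so these values only describe likeness.

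Of 52 further Polycomb genes listed by complex, 49 were in the table and all 49 were tested. In Trim71KO 10 were called higher and 11 lower, and in Trim71KO_empty 12 and 6, given as a description. That is 42.9% and 36.7% of the list, beside 32.6% and 27.8% of all genes, and nothing is read from it. In Ago2KO 7 of the 49 rose and 4 fell, in T6B_WT 3 rose and 4 fell, and in the libraries labelled Ago2KO_empty 12 rose and 5 fell (11 and 6 without replicate 2). These are 22.4%, 14.3% and 34.7% of the list, near the 18.0%, 16.0% and 28.8% of all genes called in the same comparisons. Of these 17 genes 16 kept their call without that replicate, and Mga did not (adjusted p = 0.146, edgeR). The log2 differences then were 0.21 for Asxl1, 0.20 for Dcaf7, 0.31 for Sfmbt1, 0.37 for Aebp2, 0.63 for Sfmbt2 and -0.55 for Cbx6. The median log2 difference of the 49 was 0.02, 0.03 and 0.18 in these 3 comparisons.

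Among 25 other PRC1 genes, Cbx6, a relative of Cbx7, was also lower in the Argonaute comparisons. Cbx6 fell by 0.45 (adjusted p = 0.000345, edgeR) in Ago2KO, from a mean of 71.3 to 52.0 CPM. It fell by 0.30 (adjusted p = 0.016, edgeR) in T6B_WT and by 0.48 (adjusted p = 0.000277, edgeR) in the libraries labelled Ago2KO_empty. In Trim71KO it was instead higher, at 93.0 CPM. Dcaf7, a subunit of some variant PRC1 complexes, rose by 0.42 in Ago2KO (adjusted p = 4.51e-05, edgeR) and by 0.30 in the libraries labelled Ago2KO_empty (adjusted p = 0.00276, edgeR). Pcgf3 rose by 0.27 in T6B_WT and by 0.26 in the same Ago2KO_empty libraries, and Ring1, an E3 ligase of PRC1, fell by 0.54 in the latter. Bmi1, a Polycomb ring finger protein of canonical PRC1, was higher by 0.49 in Trim71KO and by 0.58 in Trim71KO_empty. Bmi1 also rose by 0.49 in the libraries labelled Ago2KO_empty (adjusted p = 0.00241, edgeR), and by 0.57 without replicate 2 (adjusted p = 0.00047, edgeR). L3mbtl2, an MBT protein of the germline-gene repressor PRC1.6, was lower by 0.32 and 0.23 in Trim71KO and Trim71KO_empty.

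Of 9 accessory PRC2 genes, 3 rose and 1 fell in Ago2KO, where 18.0% of all genes were called. In T6B_WT 0 rose and 1 fell (16.0% of all genes), and in the libraries labelled Ago2KO_empty 2 rose and 1 fell (28.8%). Aebp2, a subunit of one PRC2 subtype, rose by 0.27 in Ago2KO (adjusted p = 0.00326, edgeR) and by 0.46 in the libraries labelled Ago2KO_empty (adjusted p = 0.000279, edgeR). Rbbp4, a histone chaperone shared with other complexes, fell by 0.21 and 0.22 in these groups. Epop, which tempers PRC2 at active genes, fell by 0.44 in T6B_WT (adjusted p = 0.000982, edgeR) and was higher by 0.58 in Trim71KO_empty. In the Trim71-edited groups Rbbp7 was lower by 0.34 and 0.27. Phf19, a Polycomb-like protein, was lower by 0.88 in Trim71KO_empty and rose by 0.50 in Ago2KO.

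Of 9 further MBT and SAM genes related to Scml2, 6 were in the table. Sfmbt2, an imprinted MBT protein gene, had a mean of 21.3 CPM in W, 11.4 in Trim71KO and 19.2 in Ago2KO. It had 15.7 CPM in T6B_MUT, 19.6 in Trim71KO_empty, 11.1 in T6B_WT and 26.0 in the libraries labelled Ago2KO_empty. It fell by 0.50 in T6B_WT (adjusted p = 0.00104, edgeR) and rose by 0.72 in the libraries labelled Ago2KO_empty (adjusted p = 1.46e-05, edgeR). Sfmbt1 rose by 0.31 in Ago2KO (adjusted p = 0.00364, edgeR) and by 0.50 in the libraries labelled Ago2KO_empty (adjusted p = 0.00246, edgeR). L3mbtl3 rose by 0.38 in T6B_WT (adjusted p = 0.0102, edgeR). Of 9 genes for the H2A deubiquitinase PR-DUB and its partners and for H3K27 demethylases, 1 rose and 2 fell in Ago2KO. There 18.0% of all genes were called. In T6B_WT 1 rose and 1 fell (16.0% of all genes), and in the libraries labelled Ago2KO_empty 4 rose and 2 fell (28.8%). Asxl1, the PR-DUB scaffold, rose by 0.16 in Ago2KO (adjusted p = 0.0328, edgeR), by 0.29 in T6B_WT (adjusted p = 0.0148, edgeR) and by 0.34 in the libraries labelled Ago2KO_empty (adjusted p = 0.00352, edgeR).

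Genes that Polycomb complexes are known to bind in embryonic stem cells were counted beside the subunits. Of 22 developmental regulators 16 were in the table. In Trim71KO 14 were tested, 2 were called higher and 8 lower, with a median of -1.46. In Trim71KO_empty 15 were tested, with 2 higher, 7 lower and a median of -0.53. Over all genes 32.6% and 27.8% were called in these comparisons, with medians of -0.00 and 0.00. Gata6, a primitive endoderm regulator, was 6.64 CPM in W, 0.344 in Trim71KO, 3.97 in T6B_MUT and 0.962 in Trim71KO_empty. Wt1 was 2.64, 0.245, 0.763 and 0.0653 CPM in the same 4 groups. The summed level of 7 primitive endoderm markers, of which Gata6 and Gata4 are 2, moved with these values. It was 50.7 to 51.8 CPM in W, 6.85 to 6.97 in Trim71KO, 12.4 to 14.3 in Ago2KO, 30.9 to 31.5 in T6B_MUT, 25.0 to 28.0 in T6B_WT, 10.7 to 12.001 in Trim71KO_empty and 18.4 to 27.6 in the libraries labelled Ago2KO_empty. Its part in the result was not tested.

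In Ago2KO 1 of the 14 tested regulators rose and 3 fell (Foxa2, Gata6 and Gata4), and in T6B_WT 1 of 15 rose and 0 fell. In the libraries labelled Ago2KO_empty 3 rose and 1 fell, of which Eomes lost its call without replicate 2 (adjusted p = 0.0583, edgeR). The list medians were 0.14, 0.38 and 0.46, and 18.0%, 16.0% and 28.8% of all genes were called in these 3 comparisons. Of 39 Hox genes 17 were in the table. In Trim71KO 9 were tested, with 2 higher and 1 lower, and in Trim71KO_empty 14, with 2 higher and 1 lower. There 32.6% and 27.8% of all genes were called. The edgeR test in Ago2KO called 0 of 9 Hox genes, and in T6B_WT and the libraries labelled Ago2KO_empty 1 of 14 rose each, Hoxb13 and Hoxc13.

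Of 12 germline genes repressed by PRC1.6, all were tested. In Trim71KO 3 were higher and 3 lower, and in Trim71KO_empty 6 were higher and 0 lower. There 32.6% and 27.8% of all genes were called. Dazl, a germ cell RNA-binding protein, had a mean of 18.0 CPM in W and 32.2 in Trim71KO, and 14.7 in T6B_MUT and 68.8 in Trim71KO_empty. Taf7l, a germ cell transcription factor subunit, was 7.80 CPM in T6B_MUT and 23.5 in Trim71KO_empty. In Trim71KO, Tex101 (-1.87), Tdrd1 (-0.69) and Mov10l1 (-0.39) were the lower ones. In Ago2KO 1 rose and 6 fell, among them Tdrd1 (-0.73), Mov10l1 (-0.56), Slc25a31 (-0.40) and Taf7l (-0.34). In T6B_WT 2 rose and 1 fell, and in the libraries labelled Ago2KO_empty 3 rose and 1 fell. Over all genes 18.0%, 16.0% and 28.8% were called in these 3 comparisons. Dazl rose by 0.47 (adjusted p = 0.00789, edgeR), 0.41 (adjusted p = 0.00938, edgeR) and 1.42 (adjusted p = 3.64e-08, edgeR) in these comparisons, the last being 1.45 without replicate 2. The summed level of 6 2-cell-like markers was 11.3 to 12.8 CPM in W, 0.628 to 1.17 in Trim71KO, 2.38 to 2.96 in Ago2KO, 15.3 to 16.4 in T6B_MUT, 73.0 to 75.6 in T6B_WT, 16.0 to 16.9 in Trim71KO_empty and 52.5 to 64.1 in the libraries labelled Ago2KO_empty. The part of these cells in any value was not tested. Of 8 fibroblast markers 4 were in the table, and their sum lay between 9.66 and 16.5 CPM in all libraries.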

How the data were processed

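Total RNA libraries (TruSeq stranded, per the labels' protocols) were summarised by the authors in 1 table. It holds raw read counts per gene, RPKM values and a gene length whose header names QuasR, per the file headers. The submitters' processing notes name bcl2fastq 2.17, STAR 2.7.3a and GRCm38/mm10, and the annotation, counter and strand setting are not given in the sources used here. Counts were tested per experiment with edgeR 4.0.16 in R 4.3.3 (TMM, filterByExpr with a minimum count of 10, robust quasi-likelihood F test, Benjamini-Hochberg over all tested genes, threshold 0.05). The Ago2 effects of the 2 experiments were compared in 1 fit over 21 libraries. SEs are the log2 fold change divided by the root of F, and 95% intervals use the normal quantile times the SE. The deposited RPKM served only to compare genes with each other, and the deposited gene length (other unit, in bases) only for description. The fit was tested on simulated data. Of 22512 gene identifiers, 22480 were found in GENCODE M21 and 22034 with the same version, so the authors' annotation was another release. No 2 replicates agreed within sampling noise (chi-square per degree of freedom 3.74 to 86.4 over 21 pairs). Alternatives were DESeq2 1.42.0, RLE factors, no count filter, other sets of libraries in the fit, a replicate block and leaving out each library. The genes, lists and tests were chosen with earlier results of these data known. All 10 members are named. From each list up to 4 called genes with the largest increase and 4 with the largest decrease could be named. Genes like Scml2 are the 5 highest and 3 lowest correlations where log2 CPM (0.1 CPM added) averaged 2 or more and spanned 1 or more, and neighbours are genes in the table within 1 Mb, of which 1 is not reported here.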

Additional observations from a re-analysis of the deposited data

Results flagged for a closer look

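In edgeR's interaction test over all 21 libraries, the Ago2 effect differed between the 2 experiments for 6 of 103 tested genes of the members, Polycomb and target lists (5.83%), against 2.13% of all genes. These 6 held no member, 1 of 49 Polycomb genes (2.04%), 2 of 16 developmental regulators and 3 of 12 germline genes. In the same test 6 of 7 primitive endoderm markers, which include Gata6 and Gata4, were called (median 1.48). So were 6 of 6 markers of 2-cell-like cells (median 3.93). The part of such cells in the 6 calls was not tested. Ago2 mRNA itself differed by -1.76 (log2) in Ago2KO and by -0.30, not past the test, in the libraries labelled Ago2KO_empty. The part of that in these values was not tested. For Sfmbt2 the effect in Experiment 2 exceeded that in Experiment 1 by 0.86 (log2, adjusted p = 8.57e-05, edgeR), at -0.15 in Ago2KO and 0.72 in the libraries labelled Ago2KO_empty. For Gata6 the excess was 1.67 (adjusted p = 1.25e-05, edgeR), at -2.10 and -0.41, and for Gata4 it was 0.86 (adjusted p = 0.0252, edgeR), at -1.21 and -0.33. For the germline genes it was 1.12 for Taf7l (adjusted p = 0.000516, edgeR), 0.94 for Dazl (adjusted p = 0.00105, edgeR) and 0.77 for Mov10l1 (adjusted p = 0.000888, edgeR). Taf7l and Mov10l1 were lower in Ago2KO (-0.34 and -0.56) and not in the libraries labelled Ago2KO_empty (0.79 and 0.22). Without Ago2KO_empty replicate 2 the excess was 0.79 for Sfmbt2, 1.58 for Gata6, 1.20 for Taf7l, 1.00 for Dazl and 0.69 for Mov10l1, all still called, and 0.66 for Gata4, which was not (adjusted p = 0.0743, edgeR).

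In 4 of 59 Polycomb genes (6.78%, against 3.26% of the 20588 genes tested in both experiments) every Trim71-edited library lay on one side of its controls in Experiment 1 and on the other side in Experiment 2, a difference that was not tested. The log2 differences in Trim71KO and Trim71KO_empty were -0.077 and 0.25 for Ezh1, -0.18 and 0.16 for Bcor, -0.20 and 0.25 for Aebp2, and -0.90 and 0.31 for Sfmbt2. Sfmbt2 ranged from 10.7 to 12.1 CPM in Trim71KO against 19.6 to 23.4 in W, and from 17.9 to 20.9 in Trim71KO_empty against 15.6 to 15.9 in T6B_MUT.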

How the results depend on the processing

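Over 600 refits of single members, no direction that had been called turned round: 551 stayed on the same side of the threshold, 41 lost a call and 8 gained one. The 551 include genes not called in either fit. The refits share most of their libraries and include the 2 comparisons that chose the genes, so this tally only describes the fits. The Polycomb list in T6B_WT had 15 called genes (8 higher, 7 lower) with those 2 groups fitted alone, against 7, while all genes called went from 16.0% to 27.1%. Leaving out 1 library at a time, called members numbered 4 to 6 in Trim71KO and 4 to 5 in Trim71KO_empty, as a description. They numbered 2 to 4 in Ago2KO, 3 in each T6B_WT fit and 2 to 7 in Ago2KO_empty (2 without T6B_MUT replicate 1). For the difference between Ago2 effects there were 0 to 1 (1 without Ago2KO_empty replicate 3). In the same fits 24.7% to 33.9%, 18.7% to 26.6%, 11.9% to 17.1%, 9.35% to 11.4%, 17.8% to 36.9% and 1.20% to 7.29% of all genes were called. Called genes of the Polycomb list numbered 13 to 18, 11 to 17, 8 to 12, 5 to 7 and 12 to 26 in the same 5 comparisons, with 13 without Trim71KO replicate 1, 11 without Trim71KO_empty replicate 1 and 26 without Ago2KO_empty replicate 3, where 24.7%, 18.7% and 36.9% of all genes were called. With the replicate number as a block, called members numbered 5, 5, 3, 4 and 6 in the 5 comparisons and 0 for the difference. The samples share only that number: the correlation of same-numbered deviations ran from -0.661 to 0.678 over 27 pairs, with 10 over 0.1. Scmh1 was gained and Eed and Cbx2 were lost under the replicate block. Scml2 and Scmh1 had the fewest reads of the 10. The cause was not tested.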
